A study of Homo sapiens with 12 samples.

Results

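The 48 genes described here work in germ cells, in meiosis and in the piRNA pathway, and they were taken as a fixed list of symbols from the 60651 genes of the count table. All 48 were found. They were measured by RNA sequencing in 2 established human cholangiocarcinoma cell lines, lines derived from cancers of the bile duct. HUCCT1 cells were given vehicle or 1 µM decitabine, an inhibitor of DNA methyltransferases. EGI-1 cells were given vehicle, 0.5 µM decitabine, 200 nM talazoparib, which inhibits and traps PARP enzymes on DNA, or decitabine and talazoparib together at these doses. Exposure lasted 72 h, and each of the 6 groups had 2 libraries, 12 in all. The labels do not say whether the 2 libraries of a group came from separate cultures, so the p-values measure only the spread between these libraries, which may be technical. The names of the talazoparib libraries carry a number other than the stated dose, and the study's sequencing methods describe EGI-1 alone.

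Most of these genes are silent in adult tissues outside the gonads. Many have promoters rich in CpG dinucleotides, and methylation of those promoters is a known means by which somatic cells keep germline genes off. In meiosis, homologous chromosomes are broken on purpose, paired along a protein zipper called the synaptonemal complex, held by a meiotic form of cohesin and tied by their telomeres to the nuclear envelope. The piRNA pathway guards the germ line against transposons: PIWI proteins carry short guide RNAs, and Tudor-domain proteins, helicases and endonuclease cofactors make or use them. Several of the genes are also known as cancer-testis genes, since tumors can express them.

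Total counts lay between 32519985 and 34965627 per library in HUCCT1 and between 23139065 and 33181930 in EGI-1. Markers of the biliary epithelium (KRT7, KRT19, KRT8, KRT18, EPCAM, SOX9 and CDH1) were present in all 12 libraries. One library stood apart: replicate 2 of the EGI-1 combination had 381 counts of PTPRC and 148 of CD3E, both blood cell genes, against 1 to 7 and 0 to 4 in the other EGI-1 libraries. Log2 fold changes without it stand beside the combination results of single genes with an unadjusted p under 0.05. The shares of all genes called with the combination include this library. In HUCCT1, 6 of 10 markers of other cell types (CD3E, PECAM1, CDH5, PDGFRB, COL1A1 and SOX17) were called higher with decitabine. The summed level of the 10 markers was 29.5 and 32.9 CPM with vehicle and 200.3 and 240 CPM with decitabine, where CPM is a library's reads for a gene relative to its TMM-adjusted total. Most of it was COL1A1, at 26.5 and 29.6 CPM with vehicle and 159 and 189.6 CPM with decitabine. SOX17 was listed as a marker of primordial germ cells. The study also reports a rise of its mRNA with decitabine in cholangiocarcinoma cells. Here SOX17 had 24 and 22 counts with vehicle and 799 and 1004 with decitabine in HUCCT1, and 0 in every EGI-1 library. Of the markers listed with it, NANOS3 was not called (log2 fold change 0.37) and POU5F1 had too few counts to test. PTPRC, the defining marker of blood cells, stayed at 3 or 4 counts in the 4 HUCCT1 libraries, and of the biliary markers KRT7, KRT19, KRT8 and KRT18 were called lower with decitabine, CDH1 was called higher, and EPCAM and SOX9 were not called. Their part in the results was not tested.

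The promoters of 6 members are shown first, because they span what happened in HUCCT1: DAZL, MAEL and TDRD9 reached the highest levels per length after decitabine, GTSF1 also rose and has few CpGs, and PIWIL1 and SPO11 stayed at 0 or 1 counts. Each line holds the 250 bases before the first start that RefSeq lists for the gene on GRCh38.p14, read 5′ to 3′ on the gene's own strand, with every CpG in capitals. The DAZL window lies inside the longest GENCODE model of the gene, far from its outermost start. The windows are chr3:16605424-16605673 (minus strand, 28 CpGs), chr1:166975332-166975581 (plus, 51), chr14:103928206-103928455 (plus, 35), chr12:54473603-54473852 (minus, 8), chr12:130337637-130337886 (plus, 22) and chr20:57329553-57329802 (plus, 24).
DAZL: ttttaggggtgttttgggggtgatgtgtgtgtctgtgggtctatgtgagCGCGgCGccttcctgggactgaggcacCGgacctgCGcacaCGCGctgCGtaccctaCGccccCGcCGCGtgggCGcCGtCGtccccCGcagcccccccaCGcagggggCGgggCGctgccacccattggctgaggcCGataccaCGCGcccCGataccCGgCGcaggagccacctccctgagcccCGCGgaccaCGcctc
MAEL: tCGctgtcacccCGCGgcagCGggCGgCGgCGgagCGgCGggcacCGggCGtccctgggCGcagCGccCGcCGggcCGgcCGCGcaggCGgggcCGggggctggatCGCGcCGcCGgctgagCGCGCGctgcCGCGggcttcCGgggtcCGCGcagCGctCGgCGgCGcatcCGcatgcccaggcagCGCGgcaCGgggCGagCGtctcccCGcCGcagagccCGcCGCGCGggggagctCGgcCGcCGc
TDRD9: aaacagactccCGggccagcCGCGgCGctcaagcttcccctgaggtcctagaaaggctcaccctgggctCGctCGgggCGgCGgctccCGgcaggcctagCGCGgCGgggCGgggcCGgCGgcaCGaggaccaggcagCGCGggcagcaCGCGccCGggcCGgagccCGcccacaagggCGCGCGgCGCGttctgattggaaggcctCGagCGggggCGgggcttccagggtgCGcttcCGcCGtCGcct
GTSF1: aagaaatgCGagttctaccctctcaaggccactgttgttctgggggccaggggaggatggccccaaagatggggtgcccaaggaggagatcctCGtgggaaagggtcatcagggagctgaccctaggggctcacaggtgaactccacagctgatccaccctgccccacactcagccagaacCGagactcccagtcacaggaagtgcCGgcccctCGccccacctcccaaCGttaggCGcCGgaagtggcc
PIWIL1: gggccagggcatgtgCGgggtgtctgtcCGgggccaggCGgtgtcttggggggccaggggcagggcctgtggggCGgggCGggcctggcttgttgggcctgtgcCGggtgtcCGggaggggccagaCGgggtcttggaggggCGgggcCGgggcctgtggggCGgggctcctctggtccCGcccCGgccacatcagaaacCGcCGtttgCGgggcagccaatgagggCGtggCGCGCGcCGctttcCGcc
SPO11: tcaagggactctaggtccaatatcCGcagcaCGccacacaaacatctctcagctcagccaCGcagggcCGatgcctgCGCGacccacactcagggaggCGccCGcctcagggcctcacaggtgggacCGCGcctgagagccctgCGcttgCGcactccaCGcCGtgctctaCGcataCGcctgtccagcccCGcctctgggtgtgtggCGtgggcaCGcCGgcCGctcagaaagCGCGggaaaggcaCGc
RefSeq promoter windows of 300 bases, 250 before and 50 after the start, were matched for 41 of the 48 members. HORMAD1, MEIOB, PIWIL2, PIWIL4, TEX14, TEX15 and TEX19 had no match. The median CpG number per window was 24 in the members and 14 in all 27305 genes with a window. In the 250 bases before the start alone, the medians were 19 and 11. The E-box CACGTG, read on both strands, stood in 8 of 41 member windows (19.5%) and in 7.43% of all windows. The letters TCCCGC, also read on both strands and part of E2F-type sites, stood in 19 (46.3%) and in 26.8%. In the 250 bases before the start the shares were 14.6% of members and 6.49% of all genes for CACGTG, and 31.7% and 23.5% for TCCCGC, a smaller gap. The 2 motifs can overlap by at most 1 letter, and a match is a description of sequence only. Both motifs contain a CpG, and the shares were not compared with those of genes of like CpG number. No DNA methylation was measured in these libraries.

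Across the 12 libraries the germline genes split the HUCCT1 decitabine libraries from all others. The counts of the 48 genes summed to 589 and 648 with vehicle in HUCCT1 and to 10264 and 8798 with decitabine, or 19.4 and 21.4 CPM against 321 and 297 CPM. A few genes made much of the decitabine sums, DAZL with 112.4 and 98.5 CPM and MAEL with 42.4 and 39.2 CPM. Of the 48, 11 had 3 counts or fewer in both decitabine libraries. In the 8 EGI-1 libraries the sum lay between 620 and 934 counts. It was 22.59 and 23.75 CPM with vehicle, 24.28 and 23.35 with decitabine, 25.28 and 26.75 with talazoparib, and 26.4 and 27.59 with the combination. The talazoparib and combination libraries lay above the others, a small gap that was not tested. In these bulk samples, a gain of cells that express a gene and a gain of its RNA in each cell cannot be told apart.

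**Figure D1:**
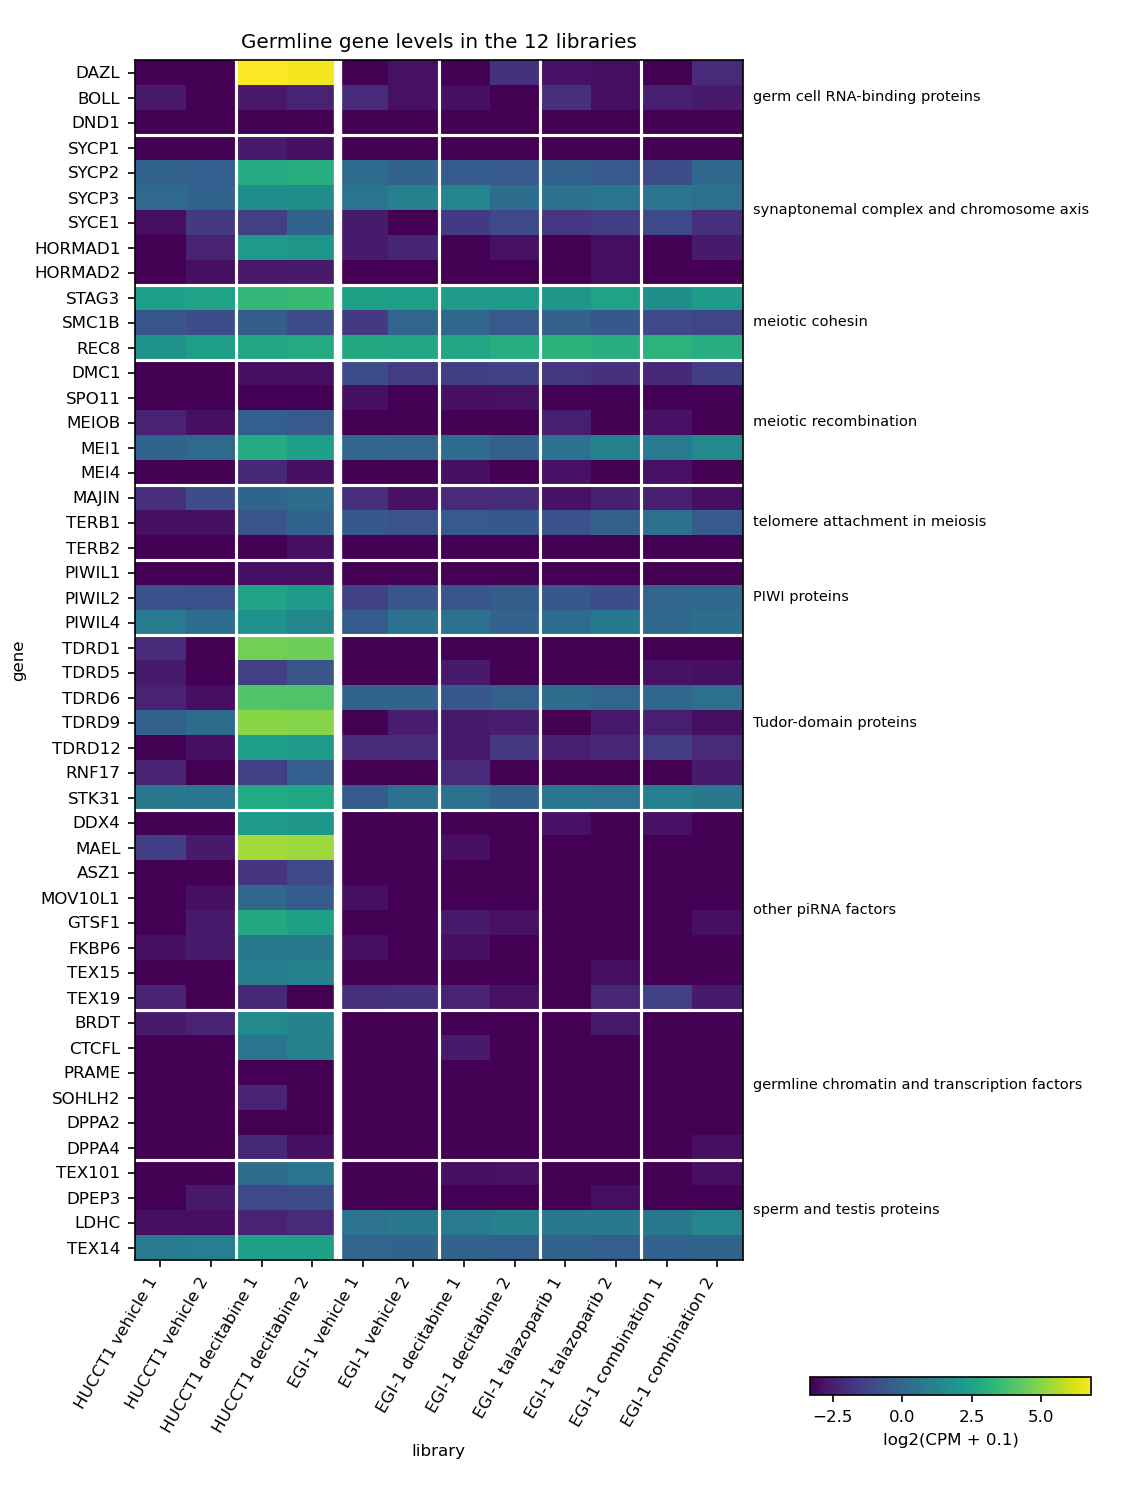
Level of each of the 48 genes (rows, grouped by role) in each of the 12 libraries (columns), as log2(CPM + 0.1) on the colour scale. The bright cells stand in the HUCCT1 decitabine columns, led by DAZL, MAEL, TDRD9, TDRD1 and TDRD6, while the EGI-1 columns differ little from each other.

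In HUCCT1, 33 of the 48 genes had 3 counts or fewer in both vehicle libraries, and 11 had 10 or more in both. After decitabine, 29 had 10 or more in both libraries. The test, edgeR's quasi-likelihood fit with Benjamini-Hochberg adjustment across 22479 genes, placed 28 of the 48 genes (58.3%) above vehicle and 0 below it, with 0.05 as the threshold for the adjusted p. Over all genes tested, 19.6% were called higher and 13.9% lower. DESeq2 called 26 higher and 0 lower. The remaining genes were SMC1B, which was tested and not called, and 19 genes with too few counts to test. A filter on low counts passes a near-silent gene only if it is high somewhere, and 18 of the 29 tested genes had under 10 counts in a vehicle library, so the share called among tested genes is no measure. The 11 genes with at least 10 counts in both vehicle libraries do not have that limit: 10 were called higher and 0 lower, with a median log2 fold change of 1.74, from 0.14 to 5.05. Of all 19628 genes with such vehicle counts, 14.7% were called higher and 15.9% lower, and their median was -0.06. The 48 genes were listed with earlier results of these data known. Their shares beside those of all genes are therefore descriptions and no independent support. The numbers called by role, given below, count untested members as not called and stand beside the 19.6% of all genes tested. The limit of the filter holds for them too.

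DAZL, an RNA-binding protein that controls translation in germ cells, had 0 and 0 counts with vehicle and 3598 and 2915 with decitabine. The 2 decitabine libraries stood at 112.4 and 98.5 CPM, and no vehicle library held a read. Against a floor of 3 counts in each vehicle library this is at least 1070-fold higher (adjusted p = 2.8e-20, edgeR). The gene lies on chromosome 3 from 16586792 to 16670306, on the minus strand of GRCh38. The related proteins moved differently. BOLL, of the same family, had 2 and 0 counts with vehicle and 2 and 3 with decitabine. DND1, which shields germ cell transcripts from microRNAs, was at 0 counts in all 12 libraries, but all of its exon bases also belong to HARS1 or WDR55, so no base of it is its own.

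The PIWI proteins, the effectors of the pathway, responded unequally. PIWIL2 had 15 and 14 counts with vehicle and 192 and 140 with decitabine (log2 fold change 3.47, standard error 0.29, adjusted p = 6.4e-10, edgeR). PIWIL4, known for nuclear silencing of transposons, had 50 and 35 counts against 113 and 76 (log2 fold change 1.11, standard error 0.28, adjusted p = 0.0030). The decitabine libraries lay above the vehicle libraries for both genes. PIWIL1 had 0 and 0 counts with vehicle and 1 and 1 with decitabine.

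The Tudor-domain proteins, which bind the methylated arginines of PIWI proteins, were called higher in 5 of 7 members. TDRD9, a helicase with a Tudor domain, had 24 and 33 counts with vehicle and 1018 and 928 with decitabine (log2 fold change 5.05, standard error 0.19, adjusted p = 6.1e-17, edgeR). TDRD1, a scaffold of the germ granule, had 4 and 0 counts against 811 and 706 (8.45, standard error 0.33, adjusted p = 1.3e-16). Its fitted value rests on 4 vehicle counts and lay between 7.47 and 12.55 when each library was left out in turn. TDRD6, another granule protein, had 3 and 1 counts against 537 and 477, a ratio of 249 with a 95% counting interval of 97.1 to 917. TDRD12, a helicase, had 0 and 1 counts with vehicle and stood at 5.06 and 4.6 CPM with decitabine, a ratio of 293 with an interval of 52.2 to 11600. Such intervals are exact, cover counting error only, and are wide because a single vehicle read sets the base. STK31, a kinase with a Tudor domain that was already present with vehicle, had 47 and 45 counts against 231 and 181 (log2 fold change 2.12, standard error 0.23, adjusted p = 5.0e-08). TDRD5 and RNF17 did not pass the filter: TDRD5 had 2 and 0 counts against 9 and 16, and RNF17 had 3 and 0 against 9 and 21.

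Of the 8 other piRNA factors, 6 were called higher. MAEL, a germ granule protein needed for transposon silencing, had 8 and 2 counts with vehicle and 1356 and 1160 with decitabine (log2 fold change 7.90, standard error 0.25, adjusted p = 3.7e-18, edgeR). With few vehicle counts, the fitted value was 9.16 without vehicle replicate 1 and 7.22 without vehicle replicate 2. MAEL lies on chromosome 1 from 166975582 to 167022214. GTSF1, a cofactor that helps PIWI proteins cut their targets, had 0 and 2 counts with vehicle and stood at 7.03 and 5.44 CPM with decitabine, a ratio of 190 (95% counting interval 52.2 to 1570). DDX4, the VASA helicase by which germ cells are often identified, had 0 and 0 counts against 137 and 119, at least 42-fold higher (adjusted p = 2.2e-11). Neither gene had more than 2 counts in a vehicle library. TEX15, needed for silencing by PIWI proteins in the nucleus, rose from 0 and 0 counts to 59 and 62, at least 19.8-fold higher. FKBP6, a cochaperone in piRNA loading, had 1 and 2 counts against 51 and 46, a ratio of 31.8 (10.6 to 157). MOV10L1, the helicase that feeds precursors into piRNA production, had 0 and 1 counts against 29 and 20, a ratio of 48.2 (8.25 to 1940). ASZ1, which anchors the machinery at mitochondria, was not tested and had 0 and 0 counts against 6 and 11, at least 2.79-fold higher. TEX19 had 3 and 0 counts against 4 and 0.

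The synaptonemal complex and its chromosome axis were called higher in 3 of 6 members. SYCP2, part of the lateral element, had 25 and 22 counts with vehicle and 237 and 236 with decitabine (log2 fold change 3.29, standard error 0.25, adjusted p = 6.7e-11, edgeR). SYCP3, its partner in the lateral element, had 30 and 25 counts against 93 and 95 (1.74, standard error 0.29, adjusted p = 3.3e-05), and 14.8% of its exon bases also belong to CHPT1 on the other strand. HORMAD1, which marks unpaired axes and is a known cancer-testis gene, had 0 and 3 counts against 141 and 120, a ratio of 85.6 (95% counting interval 29 to 418). The decitabine libraries lay above both vehicle libraries for these 3 genes. The remaining members were near 0: SYCP1, the transverse filament that closes the zipper, had 0 and 0 counts against 2 and 1, and HORMAD2 had 0 and 1 against 2 and 2. SYCE1, of the central element, had 1 and 7 counts against 9 and 25, was not tested, and shares 56.7% of its exon bases with genes on the opposite strand, CYP2E1 among them.

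Of the meiotic cohesin subunits, STAG3 and REC8 had the highest vehicle counts of the 48 genes in HUCCT1 and the smallest log2 fold changes of the 28 called. STAG3 had 157 and 176 counts with vehicle and 332 and 334 with decitabine (log2 fold change 0.97, standard error 0.17, adjusted p = 5.6e-05, edgeR), and 25.3% of its exon bases are shared with other genes. REC8, the meiotic kleisin, had 105 and 153 counts against 201 and 214 (0.66, standard error 0.20, adjusted p = 0.0136). Its call was lost without vehicle replicate 1 (0.40, adjusted p = 0.226) and without decitabine replicate 2 (0.55, adjusted p = 0.0894). SMC1B had 17 and 13 counts against 22 and 12, with overlap between the groups, and was not called (log2 fold change 0.14, adjusted p = 0.864).

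Genes of meiotic recombination and of telomere attachment were called in 4 of 8 members. MEI1, needed to form the programmed breaks, had 26 and 31 counts with vehicle and 239 and 157 with decitabine (log2 fold change 2.75, standard error 0.26, adjusted p = 6.3e-09, edgeR). MEIOB, a single-strand binding protein of meiosis, had 3 and 1 counts against 23 and 18, a ratio of 10.1 (95% counting interval 3.65 to 38.8), with 77.7% of its exon bases shared with other genes, FAHD1 among them. TERB1, which joins telomeres to the nuclear envelope, had 1 and 1 counts against 17 and 25, a ratio of 20.7 (5.37 to 176). MAJIN, its membrane partner, had 5 and 13 counts against 28 and 33 (1.72, standard error 0.50, adjusted p = 0.0089). MAJIN was not called by DESeq2 (adjusted p = 0.0561), without vehicle replicate 1 (1.18, adjusted p = 0.124) or without decitabine replicate 2 (1.54, adjusted p = 0.0738). SPO11, the enzyme that makes the breaks, was at 0 in all 4 HUCCT1 libraries, and DMC1, the meiotic recombinase, had 0 and 0 counts against 1 and 1. MEI4 had 0 and 0 against 4 and 1, and TERB2 0 and 0 against 0 and 1.

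Among germline chromatin and transcription factors, BRDT and CTCFL were called higher. BRDT, the testis bromodomain protein, had 2 and 3 counts with vehicle and 88 and 65 with decitabine, a ratio of 30.1 (95% counting interval 12.6 to 94). CTCFL, the germline paralog of CTCF also known as BORIS, had 0 and 0 counts against 46 and 60, at least 17.4-fold higher (adjusted p = 5.2e-08, edgeR). The other 4 stayed near 0: PRAME and DPPA2 had 0 counts in all 12 libraries, SOHLH2 had 0 and 0 against 3 and 0, and DPPA4 had 0 and 0 against 4 and 1. Of the sperm and testis proteins, TEX101, a surface protein of germ cells, had 0 and 0 counts against 35 and 43, at least 12.8-fold higher. TEX14, which keeps open the bridges between germ cells, had 54 and 60 counts against 172 and 159 (log2 fold change 1.5, standard error 0.23, adjusted p = 9.7e-06). DPEP3, a testis dipeptidase, had 0 and 2 counts against 12 and 12, a ratio of 11.8 (2.93 to 103). It was not called by DESeq2 (adjusted p = 0.0577) or without vehicle replicate 1, where its log2 fold change was 2.47 and not 3.40. With either decitabine library left out, DPEP3 fell below the filter and was not tested. LDHC, the lactate dehydrogenase of sperm, was not tested and had 1 and 1 counts against 3 and 4.

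**Figure D2:**
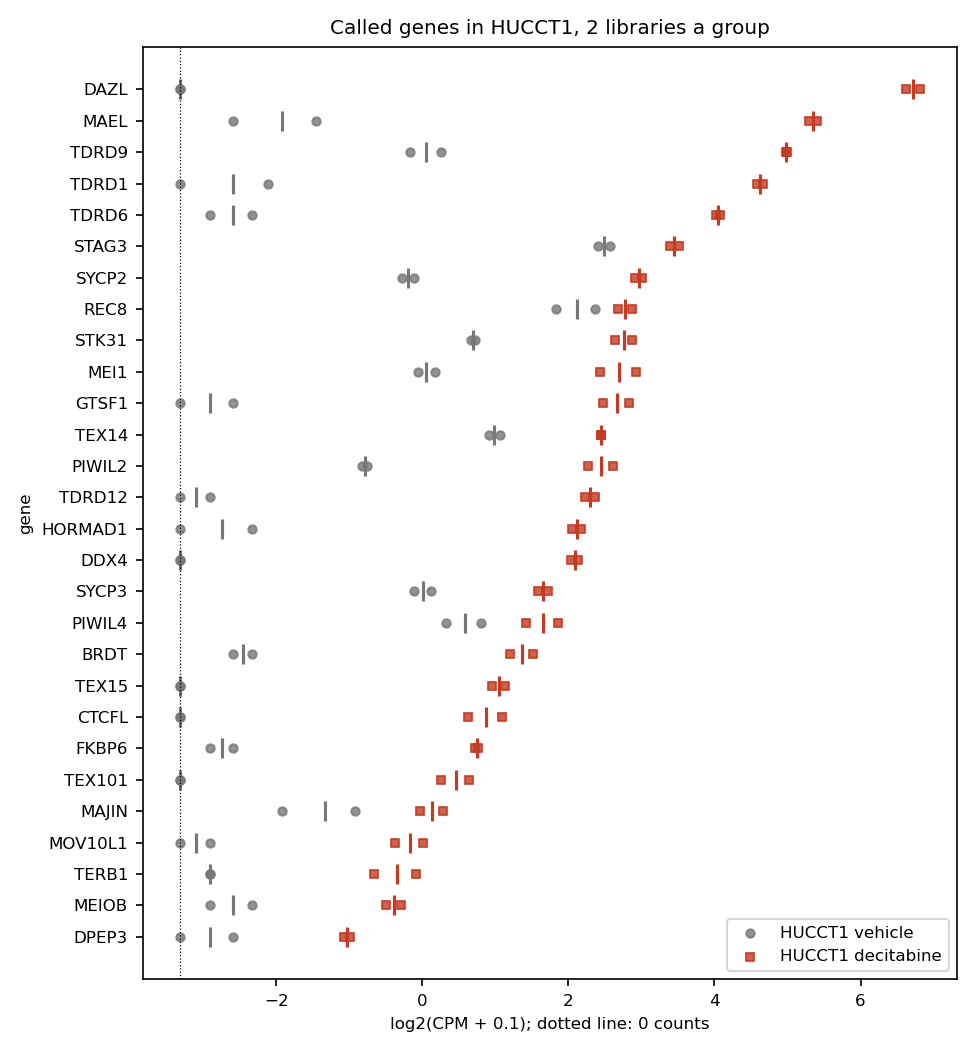
Levels of the 28 called genes in HUCCT1 as log2(CPM + 0.1), 1 point per library (grey circles, vehicle; red squares, decitabine), with a vertical tick at each group's mean level. No gene has a decitabine library at or below a vehicle library, but the genes were chosen by their call, which largely fixes that gap. The vehicle points of DAZL, DDX4, TEX15, CTCFL and TEX101 lie on the dotted line of 0 counts.

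Levels can be compared between genes only per length, as CPM per kilobase of exon. On that scale DAZL stood highest after decitabine in HUCCT1 at 29.7, above 92.8% of the genes tested, followed by MAEL at 13 (83.1%), TDRD9 at 5.76 (68.9%), TDRD1 at 2.83 (55.3%) and GTSF1 at 2.47 (52.7%). TDRD6 (1.82), STAG3, REC8 (1.76 each) and HORMAD1 (1.75) came next. The order of the top 5 changed from vehicle, where REC8 (1.11) and STAG3 (0.895) led and DAZL was at 0. PIWIL2 reached 0.935, and so stood below the Tudor proteins TDRD9, TDRD1 and TDRD6 per length.

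In HUCCT1, the CpG numbers of members that rose and of members that stayed near 0 overlapped. The 22 called genes with a promoter window had a median of 25 CpGs per 300 bases, from 1 to 60, and the 11 members with 3 counts or fewer in both decitabine libraries had a median of 23, from 7 to 32. These are descriptions without a test. DND1 is among the 11, though all of its exon bases also belong to other genes, so its 0 counts may not show silence. Among the genes that rose, MAEL had 60 CpGs, MOV10L1 had 44, SYCP2 and TDRD9 had 41 and DAZL had 33, and GTSF1 had 10. TEX101 with 3 and DDX4 with 1 also rose, but their RefSeq windows do not lie at the gene start of GENCODE: that of DDX4 is 28868 bases inside the gene and that of TEX101 lies -12885 bases from it, that is upstream. The DAZL window is likewise 64883 bases inside the outermost GENCODE start, and that of SYCE1 1544 bases. Over windows within 1000 bases of the GENCODE start, a limit set after seeing the data, 19 called genes had a median of 26 CpGs, from 10 to 60. BOLL with 32, PIWIL1 with 30, DMC1 with 29, HORMAD2 with 28 and SPO11 with 26 stayed at 3 counts or fewer.

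**Figure D3:**
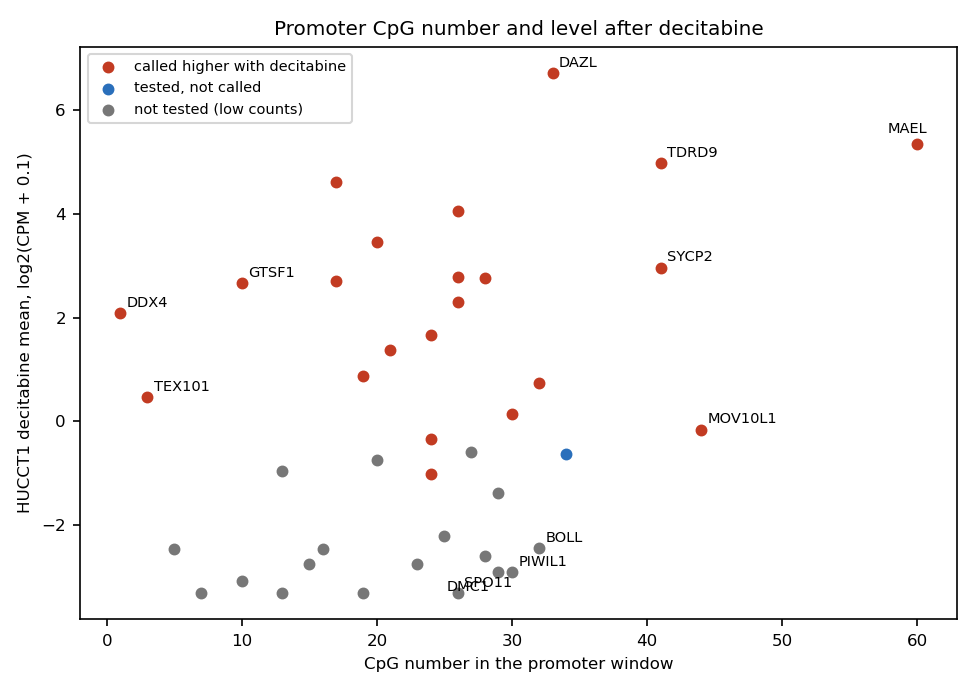
CpG number in the 300-base promoter window (horizontal axis) against the mean level in the 2 HUCCT1 decitabine libraries as log2(CPM + 0.1) for 41 genes (red, called higher; blue, tested and not called; grey, not tested). Called genes run from 1 to 60 CpGs, or from 10 to 60 without the windows of DAZL, DDX4 and TEX101, which lie over 1000 bases from the GENCODE gene start, and genes that stayed near 0 counts, such as BOLL, PIWIL1 and SPO11, lie inside the same range.

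In EGI-1, decitabine at 0.5 µM moved none of the 48 genes past the threshold. Of the 48, 14 passed the filter on low counts. With decitabine, 0 were called by edgeR and 0 by DESeq2, and 1, SYCE1, had an unadjusted p under 0.05 (2 and 0 counts with vehicle, 7 and 10 with decitabine, adjusted p = 0.264). Over all 22406 genes tested in EGI-1, 0.518% were called higher and 0.0268% lower with decitabine. The median log2 fold change of the 14 was 0.09. The genes that led in HUCCT1 stayed near 0. DAZL had 0 and 1 counts with vehicle and 0 and 5 with decitabine, MAEL had 0 and 0 against 1 and 0, TDRD9 had 0 and 2 against 2 and 2, and TDRD1 had 0 counts in all 8 EGI-1 libraries. In total 27 members had 3 counts or fewer in every EGI-1 library. A count of 3 stood for 0.0859 to 0.123 CPM in these libraries, so a level below that rests on fewer than 3 reads at this depth.

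Some germline genes were present in EGI-1 without any drug. In all, 11 members had 10 counts or more in all 8 libraries: SYCP2, SYCP3, STAG3, REC8, MEI1, TERB1, PIWIL4, TDRD6, STK31, LDHC and TEX14. LDHC had 41 and 43 counts with vehicle, 51 and 56 with decitabine, 38 and 56 with talazoparib and 38 and 72 with the combination, against 1 to 4 counts in the 4 HUCCT1 libraries. The 2 lines did not overlap. TDRD6 had 26 and 23 counts in EGI-1 vehicle libraries against 3 and 1 in HUCCT1, and TERB1 had 18 and 14 against 1 and 1. DMC1 had 3 to 12 counts in the EGI-1 libraries and 0 or 1 in HUCCT1. These gaps are between lines sequenced at different depths and were not tested.

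Talazoparib alone changed none of the members past the threshold in edgeR or DESeq2, and SYCE1, REC8 and MEI1 had an unadjusted p under 0.05. Over all genes, 2.83% were higher and 1.29% lower. Decitabine and talazoparib together raised 1 member, MEI1, while 11.1% of all genes were higher and 7.61% lower. MEI1 had 30 and 25 counts with vehicle, 33 and 21 with decitabine, 31 and 74 with talazoparib and 42 and 80 with the combination. Talazoparib replicate 2 and combination replicate 2 were the high libraries, at 2.12 and 2.63 CPM. Talazoparib replicate 1 stood at 1.26 CPM and combination replicate 1 at 1.72 CPM, also above the vehicle libraries at 0.985 and 0.8995 CPM. Against vehicle, the combination gave MEI1 a value of 1.21 on the log2 scale, with a standard error of 0.32 (adjusted p = 0.0136, edgeR). Combination replicate 2 is the library with blood cell transcripts, and without it the value was 0.86 (adjusted p = 0.184). Leaving out vehicle replicate 1 (1.27, adjusted p = 0.0845) or vehicle replicate 2 (1.14, adjusted p = 0.115) also ended the call. PTPRC and CD3E summed to 17.4 CPM in that library and to 0.0817 CPM in combination replicate 1, and the part of this RNA in the MEI1 value was not tested.

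Against decitabine alone, MEI1 was again the only member called with the combination (log2 fold change 1.21, standard error 0.32, adjusted p = 0.0277, edgeR), where 4.42% of all genes were higher and 3.26% lower. Without combination replicate 2 this value was 0.86 (adjusted p = 0.270), without decitabine replicate 2 it was 0.99 (adjusted p = 0.1), and without vehicle replicate 2 the adjusted p was 0.0504. TDRD6 (0.73, adjusted p = 0.215) and SMC1B (-1.17, adjusted p = 0.216) had an unadjusted p under 0.05 in this comparison. Without combination replicate 2 they stood at 0.59 and -1.09. Both comparisons use the same combination libraries. PIWIL2, with 9 and 15 counts with vehicle and 22 and 29 with the combination, and STK31, with 19 and 36 against 48 and 48, had no overlap between the groups but missed the threshold (log2 fold change 1.15, adjusted p = 0.0617, and 0.88, adjusted p = 0.0802). Both were called when the fit held the libraries of these groups alone. Without combination replicate 2, PIWIL2 stood at 1.11 (adjusted p = 0.202) and STK31 at 1.04 (adjusted p = 0.119). SYCE1 and REC8 also had an unadjusted p under 0.05 for the combination against vehicle. Their log2 fold changes were 2.76 and 0.35, and 3.26 and 0.48 without combination replicate 2. Against talazoparib alone 0 members were called by edgeR or DESeq2, where 1.36% of all genes were higher and 0.567% lower. PIWIL2 had an unadjusted p under 0.05 there (log2 fold change 0.90, and 0.86 without combination replicate 2). The departure of the combination from the summed single effects was called in 0 members by both tools. It was called in 0.00893% of all genes above the sum and 0.152% below it. SYCE1 had an unadjusted p under 0.05 for this departure (-2.84, and -2.33 without combination replicate 2).

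**Figure D4:**
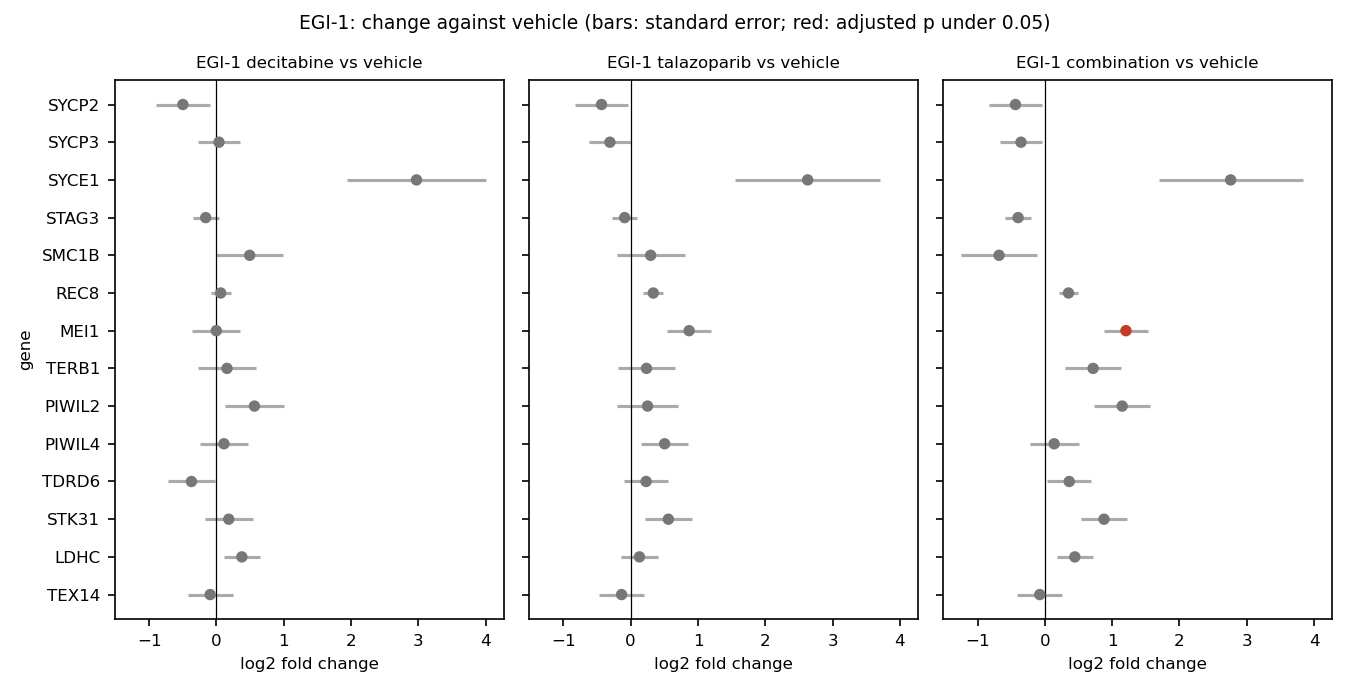
Log2 fold change against vehicle (points, with standard errors as bars) of the 14 members tested in EGI-1, for decitabine, talazoparib and the combination. MEI1 with the combination, in red, is the 1 point past the adjusted threshold. Its value of 1.21 lay between 0.86 and 1.47 when each library was left out in turn. It was lowest without combination replicate 2, the library with blood cell transcripts, whose part in the value was not tested. SYCE1 lies far to the right in each panel on 0 to 10 counts.

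Whether decitabine acted unequally in the 2 lines was tested by an interaction term fitted over all 12 libraries. The doses differed, 1 µM in HUCCT1 and 0.5 µM in EGI-1, so line and dose cannot be told apart. Of the 31 members tested, 12 had a larger rise in HUCCT1, 0 had a smaller one and 19 were not called. Over all 25096 genes, 8.74% had a larger and 7.2% a smaller effect. A near-silent member was tested only if it was high in some group, so the share called among tested members is no measure. The genes with 10 counts or more in all 8 EGI-1 libraries do not lack reads in that line, and 8 of these 11 were called. They were SYCP2, SYCP3, STAG3, MEI1, TERB1, TDRD6, STK31 and TEX14. The share called among all genes with such counts was not taken. TERB1, with 1 and 1 counts, and TDRD6, with 3 and 1, were near 0 in the HUCCT1 vehicle libraries. SYCP2 rose in HUCCT1 and had 32 and 23 counts with vehicle and 20 and 18 with decitabine in EGI-1, a difference of 3.81 on the log2 scale (standard error 0.45, adjusted p = 2.6e-06, edgeR). TDRD6, with 26 and 23 counts against 17 and 20 in EGI-1, differed by 8.25 (standard error 0.49, adjusted p = 1.0e-10), a value that rests on few HUCCT1 vehicle counts and was 9.15 or 7.69 without HUCCT1 vehicle replicate 1 or 2. MEI1 differed by 2.77 (standard error 0.46, adjusted p = 0.00020) and TEX14 by 1.61 (standard error 0.37, adjusted p = 0.0041). STAG3, SYCP3, STK31 and TERB1 differed by 1.14, 1.72, 1.96 and 4.06. SYCP3 (1.46, adjusted p = 0.0631) and STK31 (1.34, adjusted p = 0.0841) lost the call without EGI-1 vehicle replicate 2. REC8, PIWIL4 and LDHC were not called (adjusted p = 0.115, 0.165 and 0.431).

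PIWIL2 (2.92, adjusted p = 0.00038), HORMAD1 (8.36, adjusted p = 0.00065), TDRD12 (7.84, adjusted p = 3.9e-05) and DAZL (adjusted p = 0.0435, edgeR) were called on low counts. Without HUCCT1 vehicle replicate 1 or 2, HORMAD1 stood at 7.40 or 12 and TDRD12 at 6.98 or 10.11. The DAZL call was lost in 8 of the 12 fits that each left out 1 library, and without EGI-1 vehicle replicate 2, which holds the only EGI-1 vehicle read, its adjusted p was 0.9999. For MEIOB, TDRD1, DDX4, TEX15, BRDT and DPEP3 all 4 EGI-1 vehicle and decitabine libraries were at 0, so the interaction has no information on them. MAEL (adjusted p = 0.993) and TDRD9 (adjusted p = 0.0652) had at most 2 counts in those libraries.

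**Figure D5:**
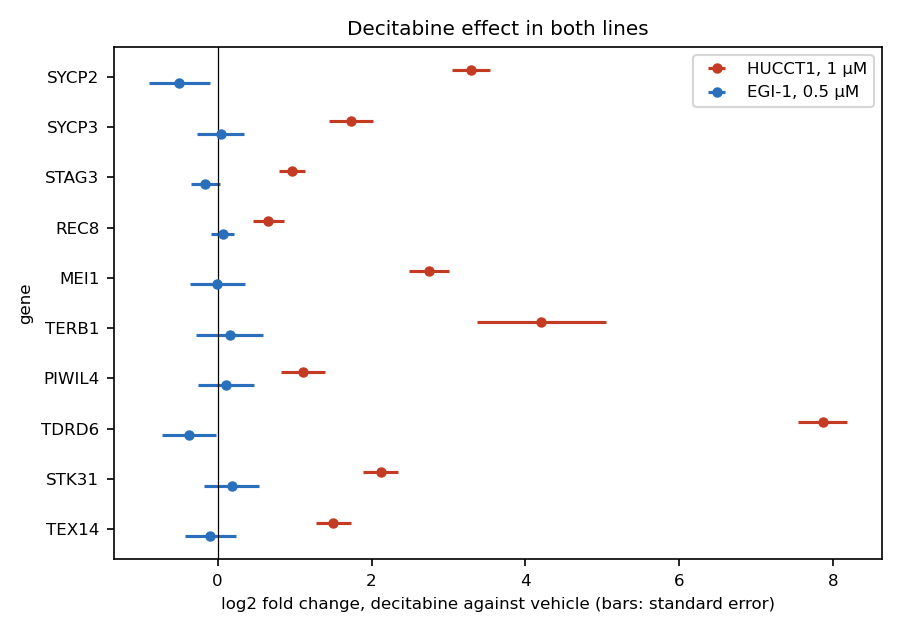
Log2 fold change of decitabine against vehicle with standard errors in HUCCT1 (red, 1 µM) and EGI-1 (blue, 0.5 µM) for the 10 genes that were tested in both lines and had 10 counts or more in all EGI-1 libraries. The HUCCT1 points lie between 0.66 and 7.86, and the EGI-1 points between -0.50 and 0.18.

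Other genes of the same pathways, from lists written from general knowledge but with earlier results of these data known, behaved differently from one another. Of 13 other piRNA genes, 10 were tested in HUCCT1, and 6 were called higher and 2 lower with decitabine, where 19.6% of all genes were higher and 13.9% lower. Some of the 10, such as PNLDC1, had almost no vehicle counts and passed the filter on low counts through the decitabine libraries. GPAT2, a mitochondrial acyltransferase linked to piRNA production, had 8 and 9 counts with vehicle and 506 and 589 with decitabine (log2 fold change 5.96, standard error 0.25, adjusted p = 9.1e-16, edgeR). PNLDC1, the exonuclease that trims piRNA ends, had 0 and 2 counts against 62 and 72. SPOCD1, which links piRNAs to DNA methylation, had 183 and 222 counts against 492 and 459 (1.20, adjusted p = 1.0e-06). MYBL1, a transcription factor that drives piRNA precursors in the testis, had 3485 and 2847 counts against 1245 and 1181 and fell by 1.42 on the log2 scale (adjusted p = 7.3e-10). Of 37 other meiosis genes, 23 were tested, and 4 were called higher and 2 lower, shares near or below the 19.6% and 13.9% of all genes. TEX11, an X-linked recombination factor, had 0 and 0 counts against 63 and 48, and MEIOSIN, which starts meiosis, had 5 and 0 against 32 and 30. HSF2BP, a partner of BRCA2 in meiosis, rose by 1.08 (adjusted p = 0.00054) and C11orf80, part of the break-forming complex, fell by 0.88 (adjusted p = 3.4e-05). The median log2 fold change of the tested genes was 0.72 in the piRNA list and 0.05 in the meiosis list.

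In EGI-1, SPOCD1 was called with every treatment. It had 140 and 137 counts with vehicle, 250 and 220 with decitabine, 165 and 278 with talazoparib and 350 and 323 with the combination. Its log2 fold change against vehicle was 0.79 with decitabine (adjusted p = 0.0290, edgeR), 0.63 with talazoparib (adjusted p = 0.0303) and 1.38 with the combination (adjusted p = 6.9e-06). The combination lay above both single agents in both libraries. PLD6, the mitochondrial nuclease of piRNA production, was called with the combination (0.71, adjusted p = 0.00083), as was CCNB1IP1 of the meiosis list (0.22, adjusted p = 0.0490). These were the 2 of 8 tested piRNA genes and the 1 of 21 tested meiosis genes called in that comparison, all higher, against 11.1% of all genes. Without combination replicate 2, the library with blood cell transcripts, SPOCD1 (1.58, adjusted p = 7.5e-06) and PLD6 (0.72, adjusted p = 0.0080) were still called, and CCNB1IP1 was not (0.13, adjusted p = 0.393).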

How the data were processed

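RNA was sequenced from 2 cholangiocarcinoma lines, and the authors deposited 1 table of raw counts per gene for the 12 libraries, without normalization. The study's methods name fastp, STAR and RSEM on GRCh38. The submitters' processing notes list fastp, Trim Galore, HISAT2 and featureCounts instead. The kit was stranded and for total RNA, and the strand setting of the counting is not given in the sources used here, so a gene and a partner on the other strand may have exchanged reads. Of 60651 genes, 60437 carried a symbol through GENCODE 44, 170 did not and 44 were pseudoautosomal copies on chromosome Y.

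Counts were fitted in edgeR 4.0.16 (R 4.3.3) with filterByExpr by group (minimum count 10), TMM factors and its robust quasi-likelihood test, adjusted by Benjamini-Hochberg over all genes tested. The 4 HUCCT1 libraries and the 8 EGI-1 libraries were fitted apart, and all 12 together for the difference between lines. Other pathway and marker genes were read from the same fits, and 1 listed marker is not reported here. DESeq2 1.42.0, RLE factors, no filter, a replicate block, the libraries of the compared groups alone and leaving out each library were the alternatives. No exact two-sided permutation of 2 and 2 libraries gives a p below 0.333, so p-values come from these fits. CPM values are counts scaled with the TMM factors of the 12-library fit. A vehicle group at 0 was set to 3 counts per library for a lower bound, and ratios on a few vehicle counts carry exact 95% intervals. Lengths and positions are from GENCODE 44 on GRCh38, promoters from RefSeq on GRCh38.p14. No libraries were merged, since replicates differed by more than counting noise (chi-square 2.56 to 11.1 per gene). The fits were tested on simulated data.

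The members and lists were chosen with earlier results of these data known. All members are named. By rule, full statistics go to at most 10 called members a comparison by smallest p and to those with the highest counts, and members with 3 vehicle counts or fewer are given by counts; the statistics of other called members were added after their values were seen. At most 4 genes of each other list are named, by smallest p in HUCCT1 decitabine and in the EGI-1 combination. The added fits without EGI-1 combination replicate 2 were chosen after seeing the data.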

Additional observations from a re-analysis of the deposited data

Results flagged for a closer look

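The decitabine effect differed between HUCCT1 and EGI-1 in 12 of the 48 genes by the interaction test of edgeR, each with the larger rise in HUCCT1. Of the 48, 31 were tested, and a near-silent gene was tested only if it was high in some group. Over all 25096 genes tested, 8.74% had a larger effect in HUCCT1 and 7.2% a smaller one. The doses were 1 µM and 0.5 µM, so line and dose cannot be told apart. The adjusted p was 1.0e-10 for TDRD6, 2.56e-06 for SYCP2, 3.92e-05 for TDRD12, 0.000196 for MEI1, 0.000381 for PIWIL2 and 0.000655 for HORMAD1. It was 0.00265 for STK31, 0.00299 for TERB1, 0.00338 for STAG3, 0.00407 for TEX14, 0.00753 for SYCP3 and 0.0435 for DAZL. DAZL lost its call in 8 of the 12 fits that left out 1 library (adjusted p up to 0.9999), and SYCP3 (0.0631) and STK31 (0.0841) each lost it in 1, without EGI-1 vehicle replicate 2. No group has more than 2 libraries, so single libraries were not tested as outliers.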

How the results depend on the processing

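In HUCCT1, the number of members called higher with decitabine stayed between 25 and 32 over all alternatives, and between 9 and 10 among the 11 present with vehicle; 0 were called lower. Of 222 values of called genes under alternatives, 215 kept their call, 7 (REC8, MAJIN and DPEP3) lost it and 0 changed direction. In EGI-1, the number called for the combination against vehicle (1, MEI1) was 3 (MEI1, PIWIL2 and STK31) with the libraries of the compared groups alone and 0 to 2 with each library left out. The number called for the combination against decitabine (1, MEI1) was 0 to 1 with each library left out and 0 with the replicate block (log2 fold change 1.18, adjusted p = 0.0504). That block used the numbers in the titles, which do not pair the libraries: deviations of same-numbered libraries correlated between -0.267 and 0.222 over EGI-1 groups and at 0.242 in HUCCT1. A replicate block by name series changed no count of calls in EGI-1. For the difference between lines, 9 to 12 members were called with each library left out and 16 by DESeq2. SYCP3 (1.46, adjusted p = 0.0631) and STK31 (1.34, adjusted p = 0.0841) lost their calls without EGI-1 vehicle replicate 2. A fit with a library left out leaves 1 library in a group, which is assumed to vary like the others. With either HUCCT1 decitabine library left out, DPEP3 fell below the filter and has no value among the 222. Depth limits the genes with few reads: a fold against 0 to 5 vehicle counts is a bound or a wide interval, and MAEL, on 8 and 2, moved from 7.22 to 9.16.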
